A study of Mus musculus with 12 samples.

Results

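The genes that build cholesterol and fatty acids were followed in the ears of mice injected with IL-17A, IL-36γ or both cytokines. By symbol, 36 genes were taken out of 50684 in the count table, 22 of them in the sterol arm and 14 in the fatty acid arm, and all 36 held enough reads to be tested. RNA-Seq of the ear had 4 groups of 3 libraries, injected with PBS (the solvent alone), with IL-17A, with IL-36γ, or with the 2 cytokines together (IL-17A + IL-36γ). All mice were female C57BL/6 animals of 8 weeks. Each cytokine was given at 1 µg in 5 µL into the skin of the ear pinna, and the combined group received both. RNA was taken after 4 days of consecutive treatment. The study kept 5 mice per group, and 3 libraries per group are described here. These ears model the skin reaction to the cytokines and not a disease that arose by itself, and the RNA came from the whole ear, so that fewer cells of a type and less RNA per cell cannot be told apart.

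Cholesterol is made from acetyl-CoA through mevalonate, squalene and a series of sterols, and its genes are switched on together by SREBP-2, the product of Srebf2, when sterols in the endoplasmic reticulum run low. Fatty acids are made by acetyl-CoA carboxylase and fatty acid synthase, then lengthened by elongases and given double bonds by desaturases, with SREBP-1, the product of Srebf1, as a main activator. In skin these lipids come from keratinocytes, where they form the permeability barrier, from sebaceous glands, which secrete sebum, and from the fat below the dermis.

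Total counts per library lay between 25293468 and 34759293. Krt5 and Krt14, keratins of the basal epidermis, were abundant in every library. The libraries labelled as replicates were not copies of each other. The labels do not say more of their origin than separate samples, and the paper describes them as individual mice. Skeletal muscle markers stood apart in PBS replicate 1, with a summed level of 127 CPM (counts divided by the scaled library size) against 1729 and 1440 CPM in PBS replicates 2 and 3, and this library returns below because it was also high in most of the 36 genes. IL-17A + IL-36γ replicates 1 and 2 were also low in them, at 137 and 71.3 CPM.

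Per kilobase of exon, Scd1 stood far above the other genes. In PBS ears Scd1, the main Δ9 desaturase of skin, which turns stearic into oleic acid, had a mean of 1426 ± 334 CPM per kb (SD, n = 3) and took 0.596% to 0.901% of all counts of a library. Elovl6, the elongase from palmitic to stearic acid, followed at 158 ± 47.3 CPM per kb, and Hmgcs1, which makes HMG-CoA ahead of mevalonate, at 119 ± 23.7. The Scd1 libraries did not overlap those of Elovl6, while Elovl6 (124 to 212 CPM per kb) and Hmgcs1 (95.4 to 143) did overlap. At the low end stood Fads2, the Δ6 desaturase of polyunsaturated fatty acids, at 2.11 ± 0.196 CPM per kb, and Scd3, a desaturase close in sequence to Scd1, at 1.43 ± 1.298. Scd1 was first in this order in each of the 4 groups and Scd3 last.

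The control regions of the members are shown here as background, and their part in the levels of these genes was not tested. Of the 36 genes, 28 had a promoter in the RefSeq table of GRCm38.p6, 18 in the sterol arm and 10 in the fatty acid arm, and the 250 bases ahead of the start were searched on both strands. The other 8 were not searched. They were Fdps, Fdft1, Sqle and Stard4 in the sterol arm and Scd1, Scd2, Fads1 and Elovl3 in the fatty acid arm. The letters CCAAT, bound by NF-Y, a partner of SREBP, were present in 17 of 18 sterol promoters, with Acat2 as the exception. In the fatty acid arm they were present in 5 of 10 (Acss2, Elovl5, Fasn, Me1 and Srebf1), and among all 27025 genes in 37.5%. The letters GGGCGG, a core of Sp1 sites, were present in 16 of 18 and 5 of 10 promoters against 35.4% of all genes. The letters TCACNCCAC, a form of the sterol regulatory element, were found in 1 of 18 sterol promoters (Hmgcs1) and 0 of 10 fatty acid promoters, against 1.22% of all genes, and TCACGTGA in 0 of 18 and 0 of 10 against 0.907%. These are matches of letters in a window and not measured binding. Printed below from 5′ to 3′ are 3 sterol genes, Hmgcs1 (chr13:119690101-119690350, + strand), Mvk (chr5:114444019-114444268, + strand) and Ebp (chrX:8193513-8193762, − strand), and 2 fatty acid genes that fell, Elovl5 (chr9:77917115-77917364, + strand) and Fasn (chr11:120824548-120824797, − strand). Capitals mark CCAAT or its reverse complement ATTGG and, in Hmgcs1, TCACCCCAC at 137 to 129 bases ahead of the start.
Hmgcs1: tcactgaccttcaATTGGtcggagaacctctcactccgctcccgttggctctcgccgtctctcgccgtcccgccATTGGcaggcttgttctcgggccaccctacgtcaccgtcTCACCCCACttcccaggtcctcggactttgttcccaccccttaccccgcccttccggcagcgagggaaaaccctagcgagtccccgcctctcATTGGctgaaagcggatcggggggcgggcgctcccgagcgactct
Mvk: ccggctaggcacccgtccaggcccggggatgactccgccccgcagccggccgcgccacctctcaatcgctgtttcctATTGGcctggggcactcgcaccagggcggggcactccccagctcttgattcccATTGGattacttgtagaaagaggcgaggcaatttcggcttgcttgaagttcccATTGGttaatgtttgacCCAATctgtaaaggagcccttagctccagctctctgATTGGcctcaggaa
Ebp: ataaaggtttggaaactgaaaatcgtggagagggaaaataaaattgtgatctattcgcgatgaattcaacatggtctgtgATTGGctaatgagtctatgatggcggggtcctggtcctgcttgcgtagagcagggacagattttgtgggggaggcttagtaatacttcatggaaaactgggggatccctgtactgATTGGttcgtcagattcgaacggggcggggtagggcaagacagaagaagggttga
Elovl5: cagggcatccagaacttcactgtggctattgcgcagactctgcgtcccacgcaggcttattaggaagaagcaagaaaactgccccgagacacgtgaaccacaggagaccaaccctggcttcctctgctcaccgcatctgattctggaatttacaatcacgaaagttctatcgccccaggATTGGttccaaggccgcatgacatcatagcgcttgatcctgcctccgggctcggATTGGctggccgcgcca
Fasn: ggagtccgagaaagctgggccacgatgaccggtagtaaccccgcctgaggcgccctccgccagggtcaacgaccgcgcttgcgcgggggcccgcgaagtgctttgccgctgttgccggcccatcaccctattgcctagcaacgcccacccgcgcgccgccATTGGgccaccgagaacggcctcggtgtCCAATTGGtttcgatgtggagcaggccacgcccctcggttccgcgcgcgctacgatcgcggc
Mvk carried 5 such CCAAT matches, Hmgcs1 and Fasn 3 each, and Ebp and Elovl5 2 each. In Fasn a pair of them overlapped in the letters CCAATTGG.

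After IL-17A alone, no gene of either arm passed the test. Of 36 genes 0 were called (adjusted p below 0.05 and more than 1 on the log2 scale, by edgeR's quasi-likelihood test over 19408 genes), where 2.1% of all genes were, and 0 were past the adjusted p of 0.05 alone, where 10.9% of all genes were. With an unadjusted p below 0.05 there were again 0 members (6013 of the 19408 genes), and DESeq2 called 0 as well. The 95% interval was -0.39 to 0.46 for Scd1, so a change of moderate size lies within it. Log2 fold changes lay between -0.32 (Elovl6) and 0.22 (Nsdhl), and the medians were 0.07 in the sterol arm and -0.02 in the fatty acid arm, beside 0.04 over all genes. Without PBS replicate 1, Idi1 (log2 0.49), Nsdhl (0.43) and Srebf2 (0.33) were raised past the test, and no other library did this when left out.

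After IL-36γ alone, 6 genes of fatty acid synthesis fell, with Scd1, Elovl5 and Fads2 changing most, and the sterol genes Ebp and Stard4 rose. Called members were again 0 of 36 (7.1% of all genes), but 8 of 36 passed the adjusted p, against 28.4% of all genes. These were 6 of 14 fatty acid genes, all lowered (11.1% of all genes were lowered), and 2 of 22 sterol genes, both raised (17.3% of all genes were raised). The libraries lay apart from those of PBS for 5 members on the low side (19.2% of all genes) and 2 on the high side (22.4%). The log2 medians were -0.27 in the fatty acid arm and 0.08 in the sterol arm, beside -0.02 over all genes. DESeq2 called 0 members as well, by its likelihood ratio and its Wald test, and 9 members had an unadjusted edgeR p below 0.05, where 8116 of the 19408 genes did. The lowered fatty acid genes were 3 in place of 6 (Elovl5, Scd1 and Fads2) without PBS replicate 1, PBS replicate 3, IL-36γ replicate 1 or IL-36γ replicate 2. The raised sterol genes were 7 without PBS replicate 1 and 1 (Ebp) without IL-36γ replicate 1.

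After both cytokines the same 6 fatty acid genes passed the test, again lowered, and 2 of them were called. Of the 36 genes 2 were called, Scd1 and Elovl5, both lowered, against 13.4% of all genes called and 6.06% called lowered. Past the adjusted p were 13 of 36 genes (36.1%), fewer than the 44.6% of all genes, so changes were no more frequent among these genes than among all. Of the 14 fatty acid genes 6 fell and 0 rose, and of the 22 sterol genes 5 rose and 2 fell, where 23.7% of all genes rose and 20.9% fell. The libraries lay apart from those of PBS for 8 members on the low side (25.6% of all genes) and 2 on the high side (27% of all genes). The raised sterol genes were 8 without PBS replicate 1, but 1 (Ebp) without PBS replicate 2, PBS replicate 3 or IL-17A + IL-36γ replicate 2. They were 2 without IL-17A + IL-36γ replicate 1, and 3 without IL-17A replicate 2, IL-36γ replicate 1 or IL-36γ replicate 2. The lowered sterol genes were 1 in place of 2 without PBS replicate 1 or 3, or IL-17A + IL-36γ replicate 1 or 2, and the fatty acid genes past the test were 5 to 7 without any 1 library. The log2 medians were -0.32 in the fatty acid arm, 0.04 in the sterol arm and -0.03 over all genes. The 3 comparisons with PBS share their control libraries, so their values are set side by side and not counted as repeats of each other.

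**Figure D1:**
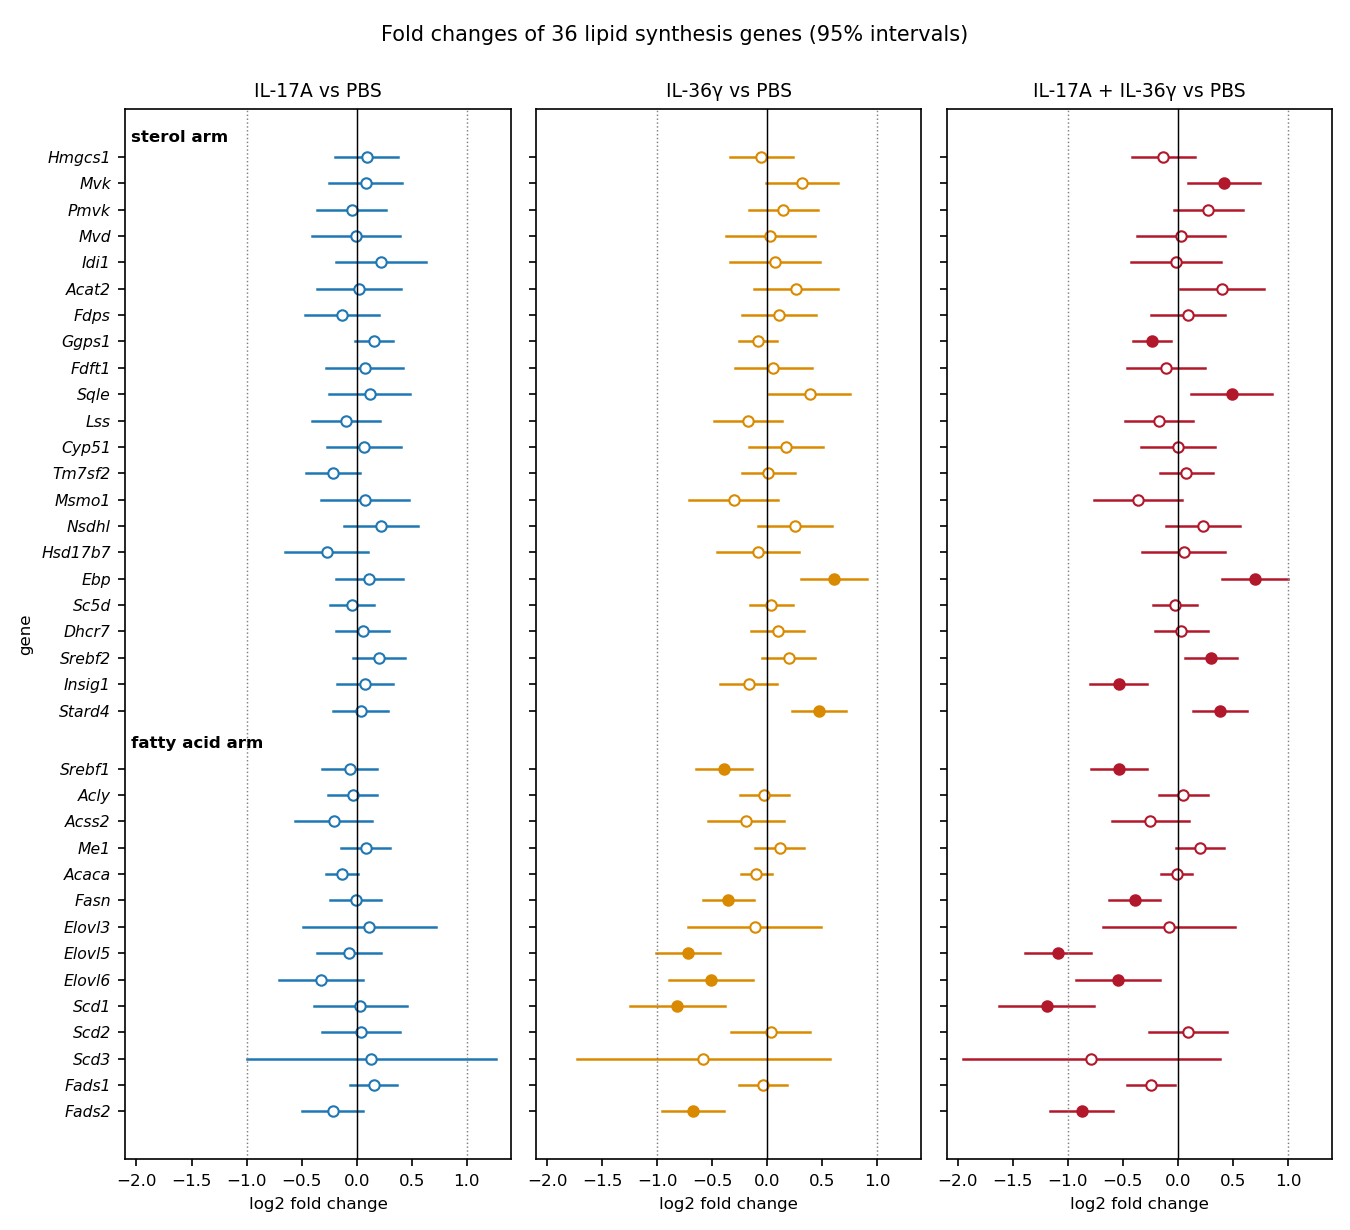
Log2 fold change against PBS of each of the 36 genes, with the 95% interval of the fit, for IL-17A (left), IL-36γ (middle) and IL-17A + IL-36γ (right). Filled points are past an adjusted p of 0.05 and dotted lines stand at a log2 value of -1 and 1. Filled points are absent on the left, and on the right the 6 filled fatty acid genes all lie below 0 while the 7 filled sterol genes lie on either side.

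Desaturation held the largest changes. Scd1 (chromosome 19, 44394455 to 44407879, − strand, GRCm38) stood at 8667, 5404 and 6856 CPM in the PBS libraries, at 8488, 7354 and 5579 after IL-17A, at 4528, 3314 and 4044 after IL-36γ, and at 3214, 3292 and 2647 after both. All 6 libraries with IL-36γ lay below all 6 without it, and the PBS and IL-17A libraries overlapped. Scd1 was 1.76-fold lower after IL-36γ (log2 -0.82, SE 0.20, adjusted p = 0.0101) and 2.29-fold lower after both (log2 -1.19, SE 0.20, adjusted p = 0.000575). Leaving out each of the 12 libraries in turn kept Scd1 past the test in both comparisons, with log2 values of -1.34 to -1.004 for the combination.

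Scd2 (chromosome 19, 44293674 to 44306864, + strand), the desaturase that neighbours Scd1, did not follow it. Its libraries read 274.4, 221.0 and 264.6 CPM after PBS, 252.2, 268.1 and 262.2 after IL-17A, 275.8, 277.5 and 222.6 after IL-36γ, and 305.0, 315.8 and 190.9 after both. The 4 groups overlapped, and the log2 change after both was 0.09 with a 95% interval of -0.26 to 0.45. The ratio of Scd1 to Scd2 counts within a library was therefore 24.4 to 31.6 after PBS and 21.3 to 33.7 after IL-17A, against 11.9 to 18.2 after IL-36γ and 10.4 to 13.9 after both. Scd3 was scarce and scattered, with 2.33, 10.4 and 2.49 CPM after PBS, 8.53, 4.02 and 4.14 after IL-17A, 3.03, 2.92 and 4.23 after IL-36γ, and 3.24, 3.77 and 1.84 after both. PBS replicate 2 was above all others, and the interval after both, -1.95 to 0.38, spans no change as well as a large fall. Of the 76-base windows of Scd3, 3.17% also occur in Scd1, so its few reads are uncertain beside the far more abundant Scd1.

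Of the desaturases of polyunsaturated fatty acids, Fads2 fell and Fads1, the Δ5 enzyme, did not pass the test against PBS. Fads2 went from 6.31 to 7.61 CPM over the PBS libraries to 4.03 to 4.53 after IL-36γ (log2 -0.68, adjusted p = 0.00301) and 3.47 to 4.25 after both (log2 -0.87, SE 0.13, adjusted p = 0.0003), without overlap in either case. Fads1 had log2 values of -0.04 after IL-36γ and -0.24 after both, the latter with an adjusted p of 0.0668. Both genes are near the low end of the set in level.

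Among the elongases, Elovl5, which lengthens polyunsaturated chains and partners Fads1 and Fads2, gave the smallest adjusted p of the set. Elovl5 (chromosome 9, 77917364 to 77984519, + strand) read 135.6, 133.1 and 142.2 CPM after PBS, 112.4, 157.4 and 122.1 after IL-17A, 96.4, 68.9 and 83.9 after IL-36γ, and 65.2, 69.4 and 58.5 after both. The PBS libraries were tight, every library with IL-36γ lay below every library without it, and the IL-36γ and combined groups overlapped. The fall was 1.65-fold after IL-36γ (log2 -0.72, SE 0.13, adjusted p = 0.00259) and 2.13-fold after both (log2 -1.09, SE 0.14, adjusted p = 0.000101), and it stayed past the test without any 1 of the 12 libraries. Elovl5 shares 0 exon bases with an annotated neighbour on either strand.

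Elovl6 passed the test less firmly. It ranged from 797 to 1366 CPM after PBS, 614 to 799 after IL-36γ and 635 to 773 after both, the log2 values being -0.51 (adjusted p = 0.0486) and -0.54 (adjusted p = 0.0262). PBS replicate 1 was its highest library, and without it the log2 values were -0.24 and -0.27 and neither was past the test. The value after IL-36γ was past it in 3 of 12 fits without 1 library (PBS replicate 2, IL-17A replicate 1 or IL-17A + IL-36γ replicate 2 left out), with adjusted p up to 0.153, and it was not past the test with the replicate number as a block. The change after both was also lost without IL-17A + IL-36γ replicate 1 or 3 (highest adjusted p = 0.0948). Elovl3, the elongase of very long saturated chains in sebaceous glands and hair follicles, was not past the test in any comparison, with 80.8 to 188.5 CPM over the PBS libraries alone and a log2 value of -0.08 (95% interval -0.68 to 0.52) after both.

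Chain synthesis itself changed less. Fasn, the fatty acid synthase, read 584.1, 471.4 and 548.4 CPM after PBS, 582.0, 524.3 and 486.5 after IL-17A, 418.7, 404.4 and 431.9 after IL-36γ, and 432.3, 435.8 and 353.1 after both. The libraries with IL-36γ did not overlap those of PBS or IL-17A, and Fasn was 1.28-fold lower after IL-36γ (log2 -0.35, SE 0.11, adjusted p = 0.027) and 1.31-fold lower after both (log2 -0.39, SE 0.11, adjusted p = 0.0103). The IL-36γ value lost the test when any 1 of 4 libraries was left out (PBS replicate 1 or 3, IL-36γ replicate 1 or 2, highest adjusted p = 0.0890), and the combined value in none of 12 cases. Acaca, the acetyl-CoA carboxylase that supplies malonyl-CoA to Fasn, read 161.3, 141.9 and 153.0 CPM after PBS, 139.9, 140.5 and 135.2 after IL-17A, 141.2, 146.0 and 139.0 after IL-36γ, and 152.0, 158.7 and 141.6 after both. Its combined libraries lay within the PBS range apart from replicate 3, and the log2 change after both was -0.01 with a 95% interval of -0.16 to 0.13, so a fall of the size seen in Fasn lies outside it. Of the windows of Acaca, 26.1% also occur in the pseudogene Gm5182.

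The supply of acetyl-CoA and NADPH was not past the test in any comparison. After both cytokines Acly, the citrate lyase, had a log2 value of 0.05, Acss2, which activates acetate, of -0.25, and Me1, the malic enzyme, of 0.20. Without PBS replicate 1, Me1 was raised past the test at 0.32 after both, and without PBS replicate 2, Acss2 was lowered past it at -0.43.

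Srebf1 was among the 6 fatty acid genes that fell. It read 251.1, 184.7 and 204.7 CPM after PBS, 187.9, 207.3 and 217.8 after IL-17A, 165.7, 151.6 and 170.9 after IL-36γ, and 154.2, 158.9 and 128.4 after both. The lowest PBS library was above the highest of the 6 libraries with IL-36γ. The log2 values were -0.39 after IL-36γ (SE 0.12, adjusted p = 0.0256) and -0.54 after both (SE 0.12, adjusted p = 0.00297). The value after IL-36γ was not past the test without PBS replicate 1 or 3 or IL-36γ replicate 1 or 2 (highest adjusted p = 0.0964), and that after both was past it in all 12 cases.

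**Figure D2:**
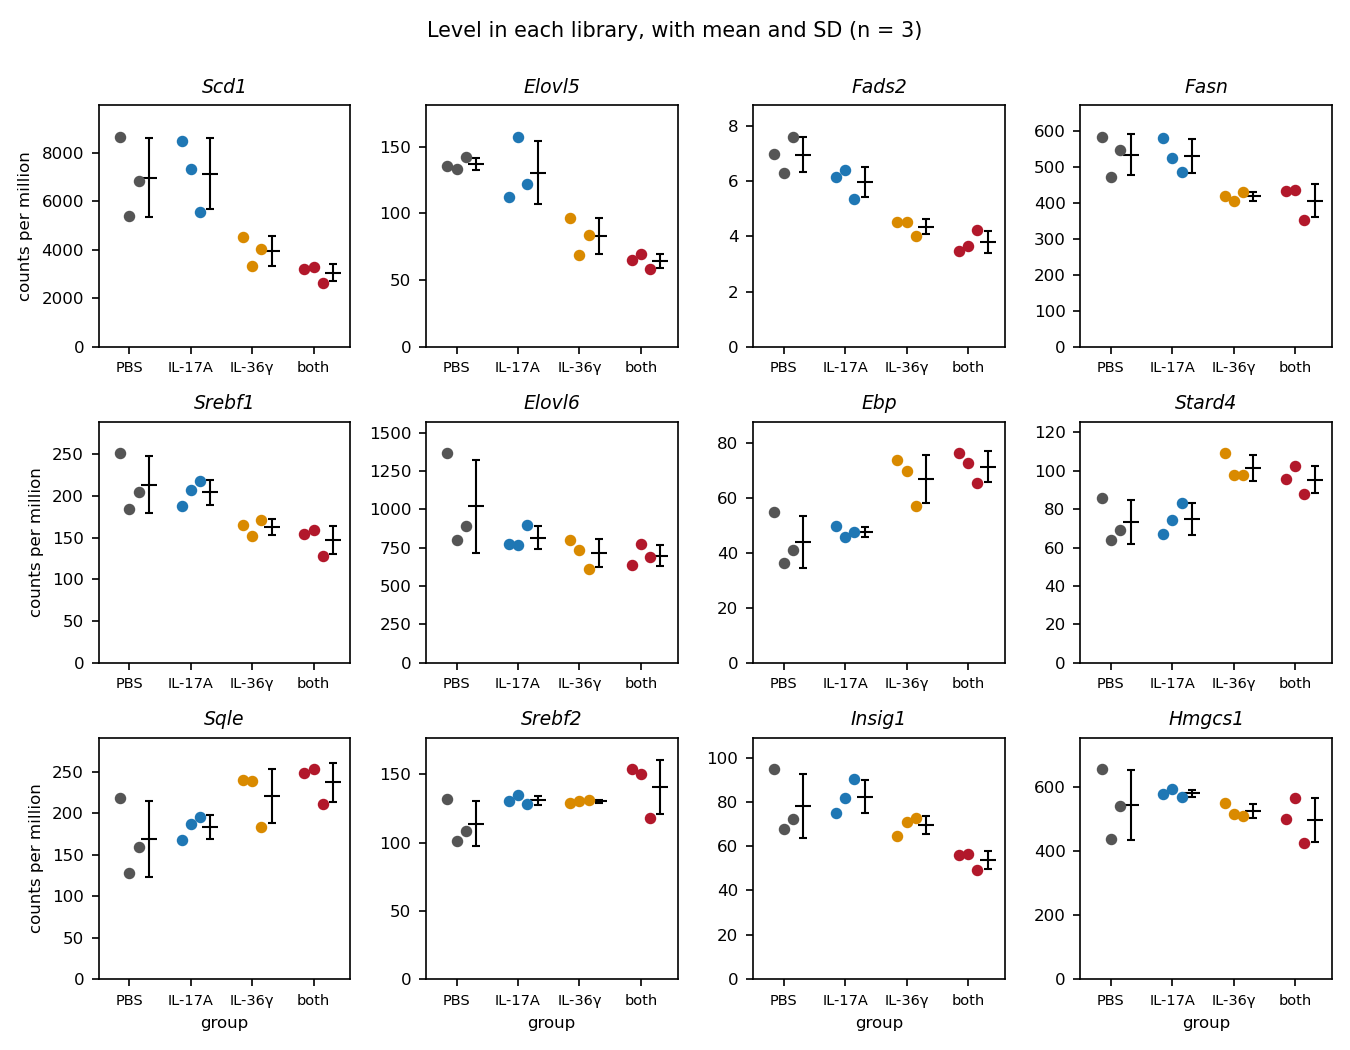
CPM of 12 of the 36 genes in each of the 12 libraries (points), with the mean and SD of each group (n = 3) beside them; "both" is IL-17A + IL-36γ and the vertical axes start at 0. Scd1, Elovl5, Fads2, Fasn and Srebf1 are lower in the 6 libraries with IL-36γ than in any PBS library, Ebp and Stard4 are higher, and each treated group of Hmgcs1 overlaps PBS.

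Most sterol genes, 15 of 22, did not pass the test after the combination, and the 5 raised and 2 lowered were no larger a share than among all genes. Raised past the test were Ebp, the sterol Δ8-Δ7 isomerase (log2 0.70, SE 0.14, adjusted p = 0.00170), Sqle, the squalene epoxidase (0.49), Mvk, the mevalonate kinase (0.42), Stard4, a carrier of cholesterol between membranes (0.38), and Srebf2 (0.30). Lowered were Insig1 (-0.54) and Ggps1, which makes geranylgeranyl diphosphate for proteins and not for sterols (-0.23). The other 15, among them Hmgcs1, Idi1, Fdps, Fdft1, Lss, Cyp51, Msmo1 and Dhcr7, were not past the test, with log2 values between -0.36 (Msmo1) and 0.40 (Acat2, adjusted p = 0.0804).

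Ebp and Stard4 were the members raised by IL-36γ alone as well. Ebp ranged from 36.2 to 54.6 CPM after PBS, 45.8 to 49.6 after IL-17A, 57.0 to 73.9 after IL-36γ (log2 0.61, adjusted p = 0.00750) and 65.2 to 76.2 after both. Stard4 ranged from 63.9 to 85.9 CPM after PBS, 67.0 to 83.3 after IL-17A, 97.6 to 109 after IL-36γ (log2 0.47, adjusted p = 0.00955) and 88.0 to 102 after both. In both genes the libraries with IL-36γ lay above all PBS libraries. Ebp stayed past the test without any 1 of the 12 libraries in both comparisons. Stard4 lost it after IL-36γ without IL-36γ replicate 1 (adjusted p = 0.0517), and after both without PBS replicate 2 or 3 or IL-17A + IL-36γ replicate 2 (highest adjusted p = 0.0696).

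Sqle, the step at which oxygen first enters the sterol path, read 219.1, 128.4 and 159.3 CPM after PBS, 168.2, 186.8 and 195.7 after IL-17A, 240.3, 239.1 and 183.1 after IL-36γ, and 248.3, 253.1 and 210.8 after both. The combined libraries were high but PBS replicate 1 reached into their range, and the adjusted p was 0.0334 after both and 0.104 after IL-36γ. Srebf2 read 132.1, 101.3 and 108.2 CPM after PBS, 130.3, 134.7 and 128.0 after IL-17A, 128.9, 130.6 and 131.1 after IL-36γ, and 153.5, 150.2 and 117.6 after both, where the adjusted p was 0.04. The 9 treated libraries were above PBS replicates 2 and 3, and PBS replicate 1 lay among them.

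These smaller changes depended on which library was left out. Sqle was past the test in 8 of the 12 fits without 1 library, Ggps1 in 7, Mvk in 5 and Srebf2 in 3. The highest adjusted p reached was 0.119 for Sqle (without PBS replicate 2 or 3, or IL-17A + IL-36γ replicate 1 or 2) and 0.116 for Ggps1 (without any PBS library, or IL-17A + IL-36γ replicate 1 or 2). For Mvk it was 0.165 (without PBS replicate 2 or 3, IL-17A replicate 2, IL-36γ replicate 1 or 2, or IL-17A + IL-36γ replicate 1 or 2). For Srebf2 it was 0.146, and only leaving out PBS replicate 1, IL-36γ replicate 3 or IL-17A + IL-36γ replicate 3 kept the call.

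Insig1, the protein that holds SREBP in the endoplasmic reticulum and is itself a target of it, was with Ggps1 lowered past the test after both. Its libraries read 94.6, 67.7 and 72.1 CPM after PBS, 75.1, 81.8 and 90.2 after IL-17A, 64.7, 71.1 and 72.9 after IL-36γ, and 55.9, 56.7 and 49.2 after both. All 3 combined libraries lay below the other 9. Insig1 fell 1.45-fold after both (log2 -0.54, SE 0.12, adjusted p = 0.00347, past the test in all 12 fits without 1 library), and its value after IL-36γ was -0.17 (adjusted p = 0.299). Hmgcs1, another known SREBP target, read 656.1, 438.5 and 541.7 CPM after PBS, 577.6, 593.8 and 571.1 after IL-17A, 549.8, 517.0 and 509.8 after IL-36γ, and 502.2, 565.6 and 426.1 after both. Each treated group overlapped PBS, the combined libraries lay just below those of IL-17A, and the log2 value after both was -0.13 (95% interval -0.42 to 0.16).

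Adding IL-17A to IL-36γ moved no member past the test. Between IL-17A + IL-36γ and IL-36γ, 0 of 36 genes were called or past the adjusted p (0.0103% and 0.0206% of all genes), and 2 had an unadjusted p below 0.05 (2938 of the 19408 genes did), Insig1 (log2 -0.37, adjusted p = 0.2) and Elovl5 (-0.37, adjusted p = 0.239). The likelihood ratio test of DESeq2 on the libraries of these groups alone put the same 2 genes past an adjusted p of 0.05, at 0.000915 and 0.0208, though under the fold threshold. Scd1 had a value of -0.38 (95% interval -0.80 to 0.05), with the combined libraries all below those of IL-36γ, an order seen in 11.3% of all genes. The interaction, the effect of IL-17A on top of IL-36γ less its effect on top of PBS, was past the test in 0 of 36 genes (0.551% of all genes, 107), with 4 at an unadjusted p below 0.05 (4373 of all genes). Its value was -0.41 for Scd1 (95% interval -1.01 to 0.19), -0.30 for Elovl5 (-0.71 to 0.11) and -0.44 for Insig1 (-0.81 to -0.08, adjusted p = 0.154). Without PBS replicate 1 the interaction of Insig1 was past the test (log2 -0.61, adjusted p = 0.0243).

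Adding IL-36γ to IL-17A lowered Scd1 and Elovl5 and 4 more fatty acid genes. Of 36 genes 2 were called, Scd1 (log2 -1.23, adjusted p = 0.00106) and Elovl5 (-1.02, adjusted p = 0.000422), against 8.95% of all genes called and 4.49% called lowered. Past the adjusted p were 10, against 32.7% (15.1% raised and 17.7% lowered). The 6 fatty acid genes past it were Scd1, Elovl5, Fads2, Srebf1, Fads1 and Fasn, all lowered, and sterol genes were Ebp and Stard4, raised, and Insig1 and Ggps1, lowered. Of the 12 fits without 1 library, Fasn was past the test in 9 (highest adjusted p = 0.0858). Stard4 was past it in 8 (highest 0.0957) and Fads1 in 11 (highest 0.0635). The remaining genes named here were past it in all 12. The median was -0.30 in the fatty acid arm and 0.03 in the sterol arm, beside -0.00 over all genes.

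Set side by side in the same libraries, the arms parted where IL-36γ was given. The median over the fatty acid arm minus that over the sterol arm, each gene taken relative to its PBS mean on the log2 scale, was -0.17, 0.11 and 0.04 in the PBS libraries and -0.03, -0.06 and -0.18 after IL-17A. It was -0.43, -0.50 and -0.26 after IL-36γ and -0.51, -0.26 and -0.39 after both. All 6 libraries with IL-36γ lay below all 6 without it, and the IL-36γ and combined groups overlapped. With scaling by library size alone, which moved the median of all genes to -0.13, -0.16 and -0.17 against PBS (for IL-17A, IL-36γ and the combination in this order), the sterol medians turned to -0.09, -0.06 and -0.10 and the fatty acid medians to -0.19, -0.42 and -0.46. Relative to all genes the sterol arm was above and the fatty acid arm below in each case, as with the main scaling. Under this scaling Tm7sf2 and Acaca were lowered past the test after IL-17A, and the sterol genes past it after both were 1 raised (Ebp) and 3 lowered (Ggps1, Msmo1 and Insig1).

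**Figure D3:**
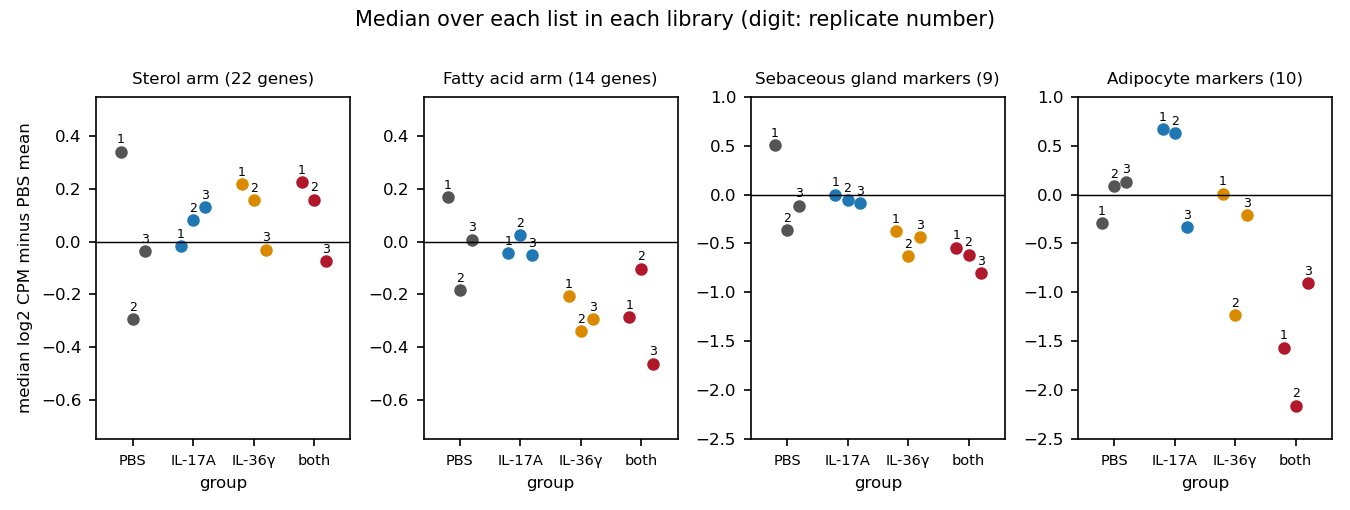
Median over a list of the log2 CPM minus the mean of the PBS libraries, in each library (points, with the replicate number), for the sterol arm, the fatty acid arm, 9 sebaceous gland markers and 10 adipocyte markers; "both" is IL-17A + IL-36γ, and the panels on the right have a wider axis. The fatty acid arm is at -0.10 or lower in the 6 libraries with IL-36γ and in PBS replicate 2 (-0.18), the sterol arm lies between -0.29 and 0.34 with the PBS libraries at its ends, and the sebaceous markers are lower in the 6 libraries with IL-36γ than in the other 6. The adipocyte markers are at -0.90 or lower in the combined libraries and in IL-36γ replicate 2, while IL-36γ replicates 1 and 3 lie within the range of PBS.

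The sterol genes rose and fell together among ears that had received the same injection. In the PBS group replicate 1 was the highest library in 21 of 22 sterol genes and replicate 2 the lowest in 21 of 22, where 44.2% and 29.8% of all genes had that order. The exception was Ggps1, with 31.2, 31.8 and 30.1 CPM. In the fatty acid arm replicate 1 was highest in 10 of 14 genes and replicate 2 lowest in 12 of 14. Msmo1, a sterol C4 demethylase, covered 225.0 to 425.5 CPM and Idi1, the isomerase of isoprene units, 22.5 to 45.2 CPM in PBS ears alone, wider than any difference between the group means of these genes.

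Over deviations from the group means in all 12 libraries, the mean Pearson correlation of 231 pairs of sterol genes was 0.69, and 213 pairs were above 0. It was 0.30 over 91 pairs of fatty acid genes, 0.42 between the arms and 0.00 over all pairs of genes tested. In the 9 treated libraries alone the values were 0.52 and 0.27. These are descriptions, since the pairs share libraries, scaling and tissue. Mvd, Fdps and Mvk followed the median of the sterol arm most closely (r = 0.94, 0.94 and 0.93), and Ggps1 did not (r = -0.16). Each sterol gene is itself part of that median, which the fatty acid genes are not, so values of the 2 arms are not alike. Of the fatty acid genes Srebf1 (0.85), Acly (0.84) and Elovl3 (0.83) followed it more closely than Elovl5 (0.35), Fads2 (-0.16) and Fads1 (-0.57). PBS replicate 1 was also the highest PBS library in 9 of 9 sebaceous gland markers and nearly free of muscle, and the part of either in the sterol pattern was not tested.

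**Figure D4:**
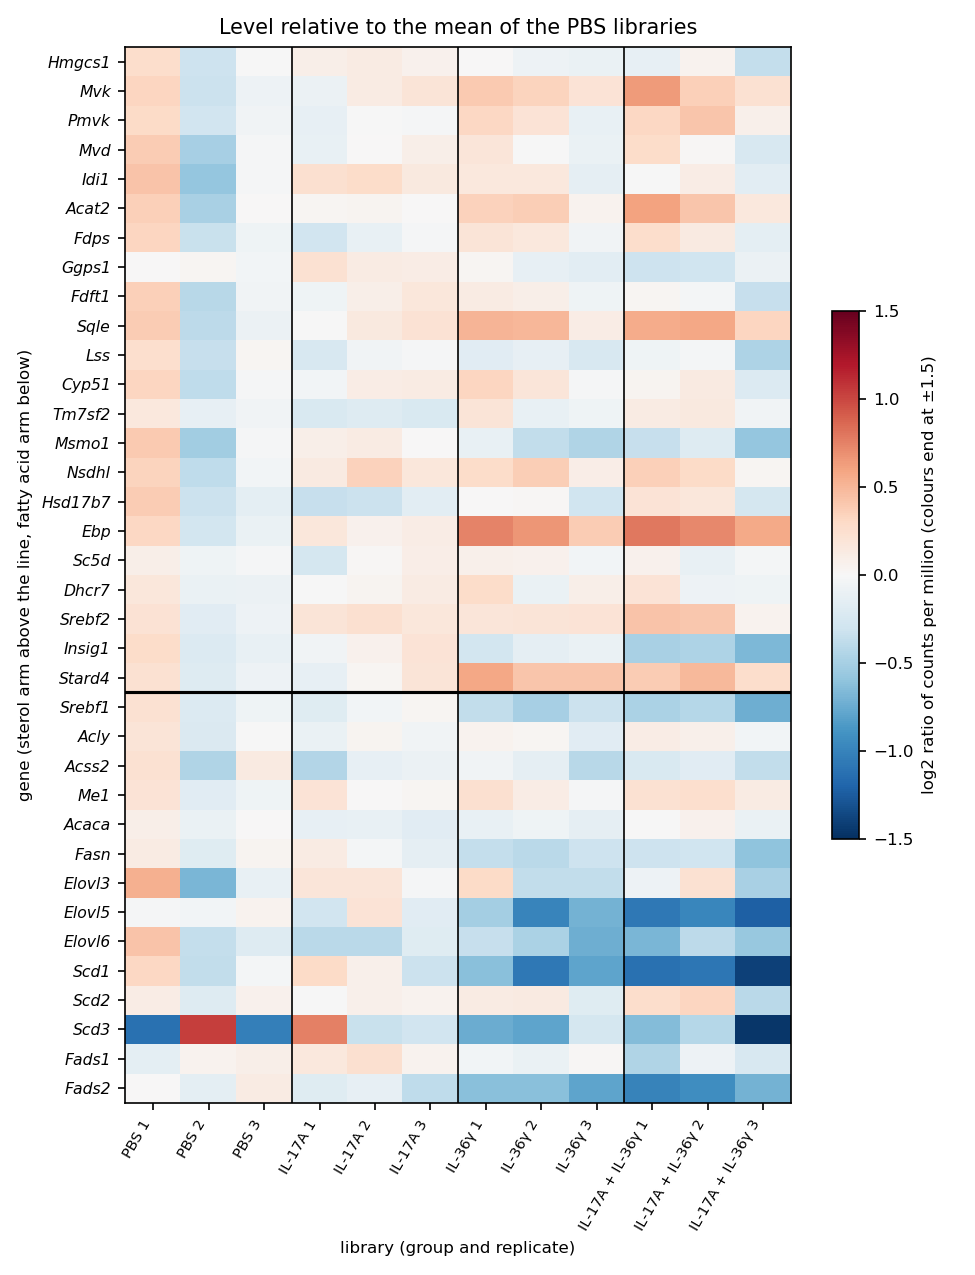
Log2 ratio of the CPM of each gene to its mean over the PBS libraries, with the sterol arm above the line and the fatty acid arm below, libraries grouped by injection. PBS 1 is high and PBS 2 low over nearly all of the sterol arm, and Scd1, Elovl5 and Fads2 are low over the 6 libraries with IL-36γ.

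Markers of the cells that make these lipids moved as well. Of 9 sebaceous gland markers 6 were lowered past the test after both cytokines (Acsbg1 called) 3 after IL-36γ (Awat2 called) and 1 after IL-17A (Dgat2l6), where 20.9%, 11.1% and, as a count, 677 of the 19408 genes were lowered. Their summed level was 1354 to 2340 CPM after PBS, 1688 to 1810 after IL-17A, 1192 to 1498 after IL-36γ and 1139 to 1296 after both. Of 10 adipocyte markers 9 were called lowered after both (6.06% of all genes), with Lipe as the exception. After IL-36γ 1 of the 10 was lowered past the test (Plin4), near the 11.1% of all genes. The sums of the adipocyte markers were 335 to 463, 322 to 571, 196 to 380 and 128 to 218 CPM in the same order of groups. No marker of either list was at 0 in any library.

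Scd1 is set beside the marker medians here in single ears. In IL-36γ replicate 1 the median of the adipocyte markers was 0.01 above the PBS mean on the log2 scale and Scd1 was at 4528 CPM, below the lowest PBS library at 5404. In the same library the median of the sebaceous markers was -0.38, about the level of PBS replicate 2 (-0.36). The median of the fatty acid arm was -0.21 there, beside -0.18 in PBS replicate 2. In IL-36γ replicate 2 the adipocyte median was -1.24 and Scd1 was at 3314 CPM, the lowest of its group. In IL-17A replicate 3 the adipocyte median was -0.33 and Scd1 was at 5579 CPM, against 0.67 and 8488 CPM in IL-17A replicate 1. The order was otherwise in PBS replicate 1, with an adipocyte median of -0.30, the lowest of PBS, and the highest Scd1 of PBS at 8667 CPM. The part of either cell type in the fall of the fatty acid genes was not tested.

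Markers of other cells in the ear are read against all genes past the test. Raised and lowered were 23.7% and 20.9% of all genes after both cytokines, and 17.3% and 11.1% after IL-36γ. For IL-17A, 1443 of the 19408 genes were raised and 677 lowered. After both cytokines 3 of 6 keratinocyte markers were raised past the test and 1 lowered (Krt15), 5 of 6 macrophage markers raised and 1 lowered (Mertk), and 6 of 6 neutrophil and 4 of 4 proliferation markers raised. The neutrophil sum went from 12.7 to 88.3 CPM after PBS to 7594 to 10019 CPM after both. Schwann cell markers were lowered past the test in 4 of 4 and cartilage markers in 4 of 4 tested, endothelial markers in 1 of 3 (Kdr), and skeletal muscle markers in 0 of 6, where the PBS libraries disagreed. After IL-36γ alone, macrophage markers rose in 5 of 6, neutrophil in 6 of 6, proliferation in 4 of 4 and keratinocyte in 4 of 6 with 1 lowered (Krt15), and after IL-17A macrophage and neutrophil markers in 5 of 6 each. The share of these cells in the change of the lipid genes was not tested.

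The lists of genes around the pathways are read here against the shares of all genes past the test, 10.9% for IL-17A, 28.4% with IL-36γ and 44.6% in the combination. Of 21 genes of sterol sensing, uptake, efflux and storage, IL-17A raised 1 past the test. With IL-36γ there were 4 higher and 1 lower, and the combination had 5 higher and 4 lower (42.9% of the list, near the share of all genes). Cyp7b1, an oxysterol hydroxylase, was the gene called, with log2 values of 1.11 after IL-36γ (adjusted p = 0.000547) and 1.88 after both (adjusted p = 1.28e-05). Of 20 tested genes of fatty acid elongation, activation and glyceride synthesis, IL-17A moved 0 past the test. With IL-36γ there were 1 higher and 3 lower, and the combination had 2 higher and 8 lower (50% of the list). Called were Thrsp, a lipogenic protein of fat (log2 -2.06, adjusted p = 0.00798), and Mlxipl, the glucose-sensing activator ChREBP (-1.60, adjusted p = 0.00930). Of the adipocyte markers 9 of 10 were called lowered in the same comparison, and their part in these values was not tested.

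Of 13 genes of fatty acid oxidation, IL-17A raised 4 past the test and lowered 0, where 1443 of the 19408 genes were raised and 677 lowered (Acadl, Hadha, Hadhb and Hadh, named after their values were seen). With IL-36γ there were 5 higher and 1 lower (17.3% and 11.1% of all genes), and the combination had 6 higher and 2 lower (23.7% and 20.9%), with 0 called in each case. The log2 median of this list was 0.23, 0.14 and 0.08 in the 3 comparisons with PBS (IL-17A first, the combination last), against -0.02, -0.27 and -0.32 in the fatty acid synthesis arm.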

How the data were processed

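Whole-ear RNA was sequenced with a stranded total RNA kit in 12 libraries, with reads of 76 bases. The authors aligned reads with STAR 2.5.2b, counted them with featureCounts of Subread 1.5.1 on mm10, and deposited raw counts per gene and tables of DESeq2 1.30.0 comparisons. The annotation they counted on, and whether counting used strand or shared reads, are not given in the sources used here, so members with overlapping genes or near copies are uncertain, as in Fdps (26.7% of its exon bases shared with Gm43738) and Acat2 (33.7% of its windows also in Acat3). Gene positions, exon lengths and overlaps were taken from GENCODE vM21 (GRCm38). Of the comparison tables only the symbol column was used. Their fold changes and p-values are the authors' own comparisons and were not used.

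Groups came from the sample labels. Genes with at least 10 counts by filterByExpr were kept, leaving 19408, and were fitted with edgeR 4.0.16 (TMM scaling, quasi-likelihood test, 1 fit of 12 libraries, R 4.3.3, limma 3.58.1, common biological variation of 14.2%). Adjusted p-values are Benjamini-Hochberg values over all 19408 genes and two-sided. Genes were called at an adjusted p below 0.05 and a log2 change beyond 1 in size, which the study also used. The interaction needs only the adjusted p. Log2 CPM used a prior count of 2. Scripts were tested on simulated data. Alternatives were DESeq2 1.42.0, other scaling, other filters, fits of the compared groups alone, a replicate block, and each library left out. Values by library are given for called members and for 9 regulators and enzymes (Srebf1, Srebf2, Insig1, Hmgcs1, Sqle, Fasn, Acaca, Scd2 and Scd3), the others by range. In the pathway lists up to 3 called genes were named per list. The members and lists were chosen with earlier results of these data known.

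Same-numbered replicates were compared by the correlation of their deviations from the group means. Every pair was over 0.1 only for IL-36γ with IL-17A + IL-36γ (0.128, 0.188 and 0.240), and the labels do not state a pairing. The main fits did not pair the samples, and the replicate number entered only as a block among the alternatives. The p-values measure the spread between the 3 sequenced samples of a group.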

Additional observations from a re-analysis of the deposited data

How the results depend on the processing

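No called gene reversed under the alternatives run. Without the fold threshold, IL-36γ had 8 members past the test, the combination 13, and the combination against IL-17A 10. Library size alone left 1 member called in the last comparison, and leaving out 1 library gave 1 to 2 (1 without IL-17A replicate 2, IL-36γ replicate 1 or IL-17A + IL-36γ replicate 3). Interaction calls were 0 to 1 without 1 library (Insig1, without PBS replicate 1). With library size alone the log2 medians were -0.092 (sterol) and -0.19 (fatty acid) for IL-17A, -0.064 and -0.42 for IL-36γ, and -0.46 in the fatty acid arm for the combination, beside the shift of all genes given above. With Srebf1 and the supply enzymes Acly, Acss2 and Me1 left out, the fatty acid medians were -0.43 for IL-36γ and -0.47 for the combination. The supply enzymes left out had medians of -0.03 and 0.05, so this set lacks members that changed little. Without 1 library the sterol median ranged from -0.073 to 0.24 for IL-17A, -0.019 to 0.29 for IL-36γ and -0.046 to 0.26 for the combination, the highest each time without PBS replicate 1 and the lowest without PBS replicate 2. The cause of these changes was not tested.

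A replicate block called 0, 0, 2, 0, 2 and 0 members in the 6 comparisons, as without it. It put 14 members past the adjusted p for the combination, Me1 joining, and 7 for IL-36γ, Elovl6 dropping out. With DESeq2 the called counts were the same. Past the adjusted p alone, its likelihood ratio test had more members for the combination against IL-17A. These were 11 sterol genes (7 raised and 4 lowered) and 7 fatty acid genes, all lowered, where its Wald test had 4 and 6. Fits of the compared groups alone gave 3 sterol and 5 fatty acid genes past the test for the combination, 2 and 4 for IL-36γ, and 8 and 6 for the combination against IL-17A. Arm medians and the list counts had no p of their own.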
